A study of Homo sapiens with 12 samples.

Results

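The genes described here encode the protein components of the cytosolic ribosome. They were taken as every protein-coding gene in the deposited expression table whose symbol begins with RPL or RPS and a number, together with RPLP0, RPLP1, RPLP2 and RPSA. The ribosomal S6 kinases (10 genes), the readthrough genes (3) and pseudogenes were left out. This gave 87 of the 20308 genes in the table: 46 genes of the large (60S) subunit, 31 of the small (40S) subunit, 9 paralogs of subunit genes, and RPS19BP1, which the naming pattern takes in although it encodes a nucleolar protein that binds RPS19 and is not part of the ribosome. FAU and RACK1 are subunit genes under other symbols and are given separately.

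The RNA came from C4-2 cells, an established castration-resistant prostate cancer line. One group of cells overexpressed ALKBH5 (oeALKBH5), an enzyme that takes the methyl group off N6-methyladenosine (m6A) in RNA, and the other carried the empty vector (NC). Each group had 3 input libraries of rRNA-depleted total RNA, which carry the expression values used below, and 3 libraries of m6A-immunoprecipitated RNA, which were not analysed here. The labels give no other agent or allele, and do not say how the construct was delivered, whether either group is 1 clone or a pool, or whether each replicate was its own culture. The p-values therefore measure only the spread between these samples, which may be technical.

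Levels are FPKM, the sequenced fragments of a gene per unit of transcript length and of library size. More mRNA of these genes per cell and less of the other RNA cannot be told apart on that scale. ALKBH5 itself had 80.3, 74.3 and 72.5 FPKM in the oeALKBH5 libraries, against 64.9, 61.1 and 58.2 FPKM in the NC libraries. The groups did not overlap, but the difference did not pass the test across all genes (limma, log2 fold change 0.30 with an SE of 0.10, adjusted p = 0.114), and whether the value holds reads of the introduced sequence was not tested. The 9 luminal prostate markers lay between 52.3 and 1019.5 FPKM, and their sum was 2244 to 2478 FPKM in oeALKBH5 and 2234 to 2267 FPKM in NC. The 11 basal, fibroblast and immune markers reached at most 27.6 FPKM, with sums of 4.34 to 29.2 FPKM in oeALKBH5 and 6.71 to 17.5 FPKM in NC, and DCN and MS4A1 were listed at 0 in every library.

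A ribosome is assembled in the nucleolus from ribosomal RNA and 1 copy of nearly every subunit protein, and the proteins made in excess are degraded. The 60S subunit forms peptide bonds and holds the exit tunnel of the growing chain, while the 40S subunit decodes the mRNA. Most ribosomal protein mRNAs begin with a C followed by a run of pyrimidines, the 5′ terminal oligopyrimidine (TOP) tract, through which mTORC1 and the RNA-binding protein LARP1 control their translation and stability.

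The start regions of 10 genes on which the results turn are given first, because the TOP tract is the feature these mRNAs are known to share. Each is 30 bases of RefSeq sequence (GRCh38.p14, gene strand, 5′ to 3′), with 10 bases before an annotated transcription start and 20 from it. RPL10 has 3 annotated starts, and the one with the longest tract is shown. Capitals mark a tract, defined as a C at the start followed by at least 4 bases that are each C or T, searched on the gene's own strand only and extended to the first purine. The positions are chrX:154398367-154398396 (plus strand) for RPL10, chr9:133348208-133348237 (plus) for RPL7A, chr17:8383174-8383203 (minus) for RPL26, chrX:119791611-119791640 (minus) for RPL39, chr1:6199576-6199605 (minus) for RPL22, chr3:170870176-170870205 (minus) for RPL22L1, chr2:3575250-3575279 (plus) for RPS7, chr19:8321486-8321515 (plus) for RPS28, chr1:153990752-153990781 (plus) for RPS27 and chr15:63157458-63157487 (minus) for RPS27L.
RPL10: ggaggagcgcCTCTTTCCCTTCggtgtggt
RPL7A: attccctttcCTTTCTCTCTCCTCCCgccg
RPL26: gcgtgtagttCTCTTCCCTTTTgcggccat
RPL39: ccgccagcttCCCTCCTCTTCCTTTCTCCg
RPL22: cgctcacctcCCTTTCTaactccgctgccg
RPL22L1: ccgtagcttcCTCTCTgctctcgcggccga
RPS7: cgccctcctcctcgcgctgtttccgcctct
RPS28: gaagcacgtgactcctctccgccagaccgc
RPS27: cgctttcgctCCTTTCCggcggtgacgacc
RPS27L: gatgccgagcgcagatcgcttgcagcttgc

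Of the 69 ribosomal protein genes with an annotated start in the table, 48 had a tract at one of their starts (69.6%), against 948 of 14772 protein-coding genes (6.42%). The share was 28 of 38 for the 60S genes, 18 of 24 for the 40S genes and 2 of 7 for the paralogs. Among the mitochondrial ribosomal protein genes, whose products form a separate ribosome, it was 5 of 67 (7.46%). Counted by start instead of by gene, 48 of 85 starts of the ribosomal protein genes had a tract (56.5%). Over protein-coding genes this held for 968 of 20956 starts (4.62%). RPL39 and RPL7A had the longest tracts, of 19 and 16 bases, followed by RPS24 with 14, RPLP2 with 13, and RPL10, RPL26 and RPS21 with 12 each. RPS7 and RPS28 had none at the annotated start, and a start that differs in these cells would give another result.

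Most of these mRNAs were among the most abundant in the cells. The members took 17.1, 17.5 and 17.5% of the summed FPKM in the oeALKBH5 libraries, against 17, 16.4 and 16.4% in the NC libraries. The median level over the 6 libraries was 1045 FPKM for the 60S genes, with a range of 189 to 3771, and 924 FPKM for the 40S genes, which reached 2601. RPL21, a 60S protein, was the highest of all, at 3853, 3705 and 3830.0 FPKM in oeALKBH5 and 3906, 3695 and 3636 FPKM in NC. It was followed by RPL7A, RPL39 and RPL26, with means of 2848, 2815 and 2692 FPKM. RefSeq lists 137 pseudogenes named for RPL21, and reads could be divided among such copies, so its level and rank are uncertain. RPS18, which lies in the head of the small subunit, was the highest 40S gene, at 2531, 2735 and 2731 FPKM in oeALKBH5 and 2711, 2433 and 2468 FPKM in NC. The groups overlapped for both RPL21 (log2 fold change 0.02, SE 0.04, limma adjusted p = 0.82) and RPS18 (0.07, SE 0.05, limma adjusted p = 0.474).

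The paralogs were mostly low, and the 6 that were tested had means between 6.73 FPKM for RPL10L and 869 FPKM for RPL22L1. RPL3L, a heart and skeletal muscle form of RPL3, was listed at 0 in all 6 libraries. RPL39L, best known from the testis, was listed at 0.587, 0 and 0 FPKM in oeALKBH5 and 0, 0.565 and 0 FPKM in NC. These genes and RPS4Y1 were below the filter of 0.5 FPKM on the mean, which left 84 members tested.

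**Figure D1:**
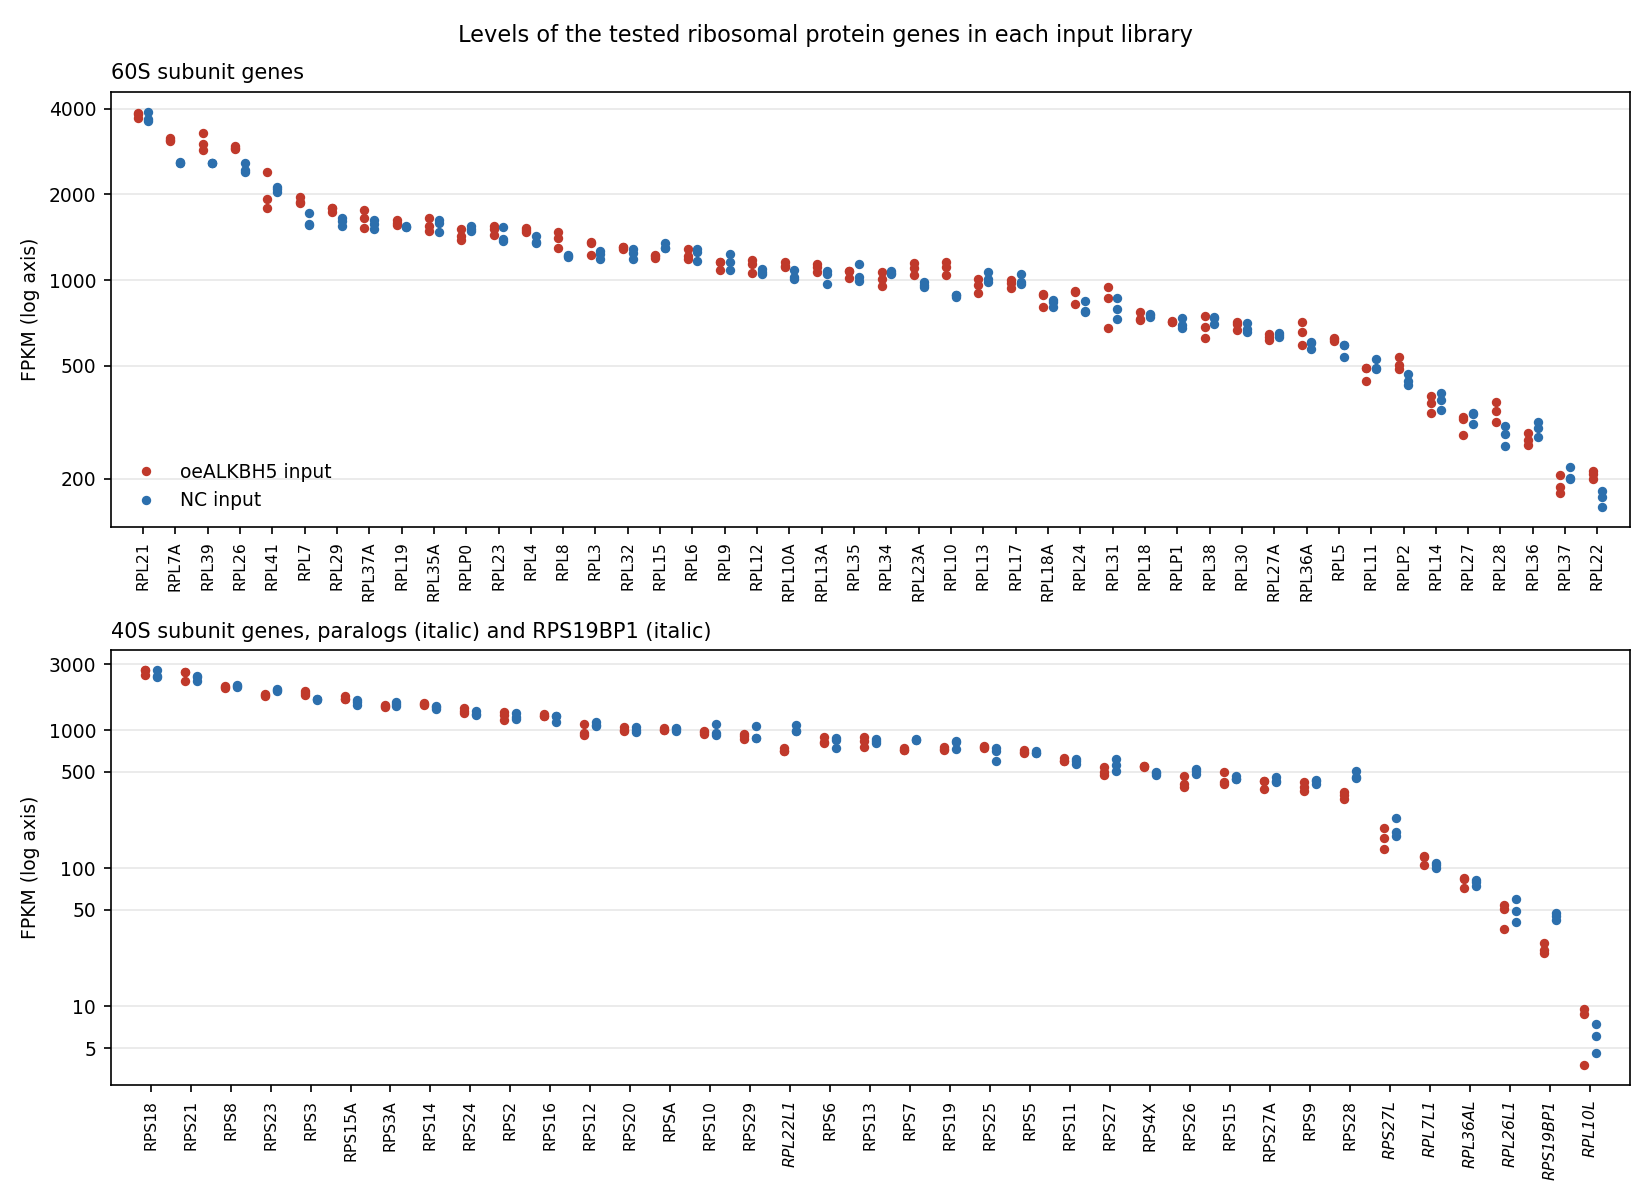
FPKM (log axis) of 83 tested genes in each input library, ordered by mean, with oeALKBH5 (red) left of NC (blue); 60S genes above, 40S genes, paralogs and RPS19BP1 below. The 60S genes span means of 189 to 3771 FPKM, RPL21 is highest with a mean of 3771, and most paralogs lie far below the subunit genes, with RPL10L lowest at 6.73.

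Replicates of these genes lay close together. The median SD over replicates was 0.0663 in oeALKBH5 and 0.059 in NC on the log2 scale, against 0.226 and 0.204 over all tested genes, and 0.0973 and 0.0884 over the 816 genes that averaged 100 FPKM or more. Differences of under 1.25-fold passed the test for some of these genes.

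With ALKBH5 overexpression, ribosomal protein mRNAs had a median change near 0, while a few moved in opposite directions. Of the 84 tested, 5 were called higher, 4 were called lower and 75 did not pass the test (limma on log2(FPKM + 1), adjusted p under 0.05 over 12757 genes). All 5 higher genes encode 60S proteins: RPL10, RPL7A, RPL26, RPL39 and RPL7. The 4 lower genes are the 40S genes RPS28 and RPS7, the paralog RPL22L1 and RPS19BP1. The called share was 10.7% of the members, against 5.45% of all tested genes (3.02% higher and 2.43% lower) and 21.9% of the genes that averaged 100 FPKM or more. The members' share lay between these backgrounds. The median log2 fold change was 0.02 over the members and 0.02 over all tested genes; 46 members were positive and 38 negative, and the range was -0.75 to 0.33. With quantile normalization the split was 7 higher and 3 lower. RPL7A, RPL26, RPL39 and RPS7 were then not called, and RPL24, RPL22, RPLP2, RPS4X and RPL23A were called higher. Without the intensity trend in limma's variance, RPS19BP1 was the single member called, and without NC replicate 3 only 3 were called.

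The difference between subunits was one of counts. Among the 46 genes of the 60S subunit, 5 were called higher, none lower and 41 did not pass; 29 values were positive, and the median log2 fold change was 0.05. Among the 31 genes of the 40S subunit, none was called higher, 2 were called lower and 29 did not pass. Of the 31 values, 14 were positive, and the median was -0.02. The called share was 10.9% of the 60S genes and 6.45% of the 40S genes. It was 5.45% of all tested genes and 21.9% of those that averaged 100 FPKM or more. Of the latter 816 genes, 69 were called higher and 110 lower. Taken without a test, the groups of 3 libraries did not overlap in 15 of the 60S genes that were higher in oeALKBH5 (32.6%) and 1 that was lower (2.17%). For the 40S genes this held for 5 higher (16.1%) and 4 lower (12.9%). Over all tested genes, 15.1% were higher and 13% lower without overlap, and over those that averaged 100 FPKM or more, 20.2% were higher and 30.4% lower. The share of higher 60S genes was above both backgrounds. Both 40S shares lay near the first background and below the second. Members share the same libraries, so these shares have no p of their own.

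**Figure D2:**
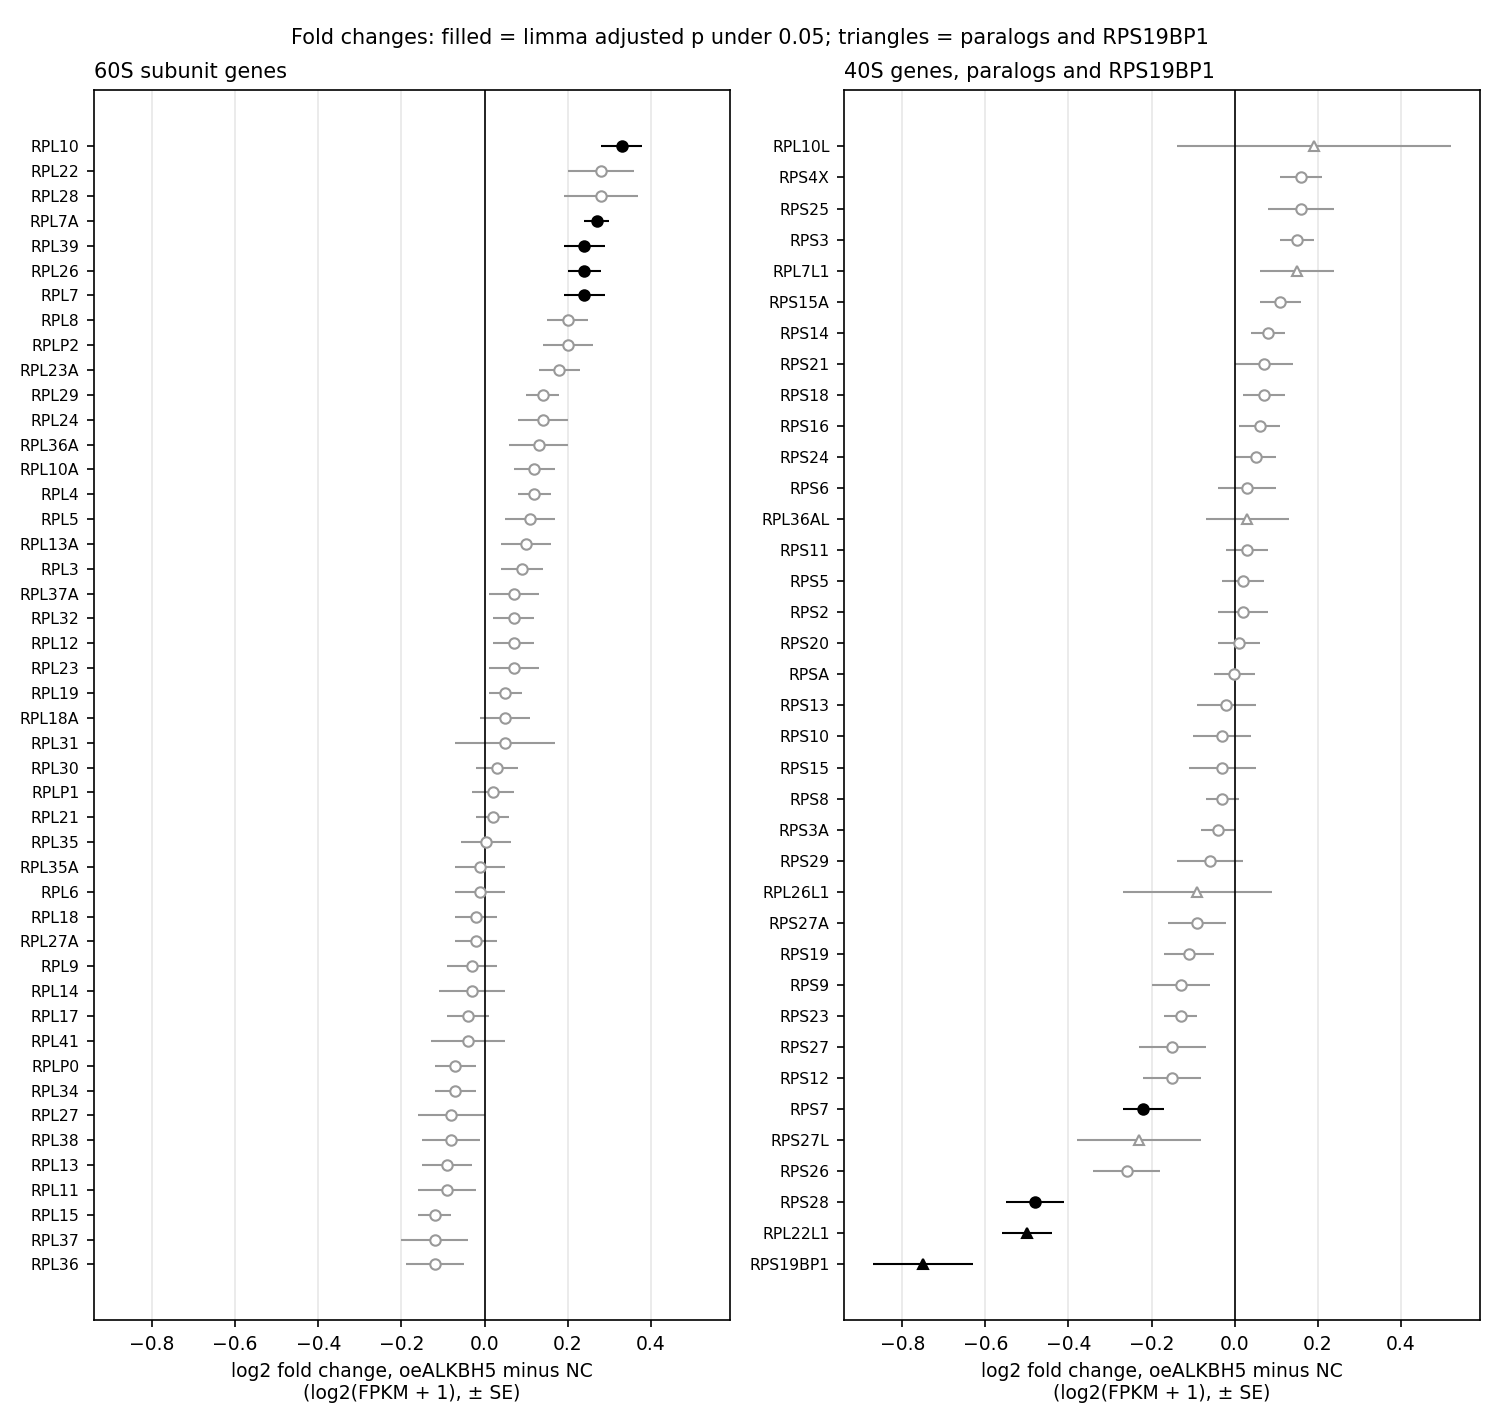
Log2 fold change, oeALKBH5 minus NC, on the log2(FPKM + 1) scale, with its SE, for 83 tested members: 60S genes left, and 40S genes (circles), paralogs and RPS19BP1 (triangles) right; filled symbols passed the limma test. The filled 60S symbols lie between 0.24 and 0.33, and the filled symbols on the right lie between -0.75 and -0.22.

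RPL10 (ENSG00000147403) rose the most. Its protein joins the 60S subunit last, in the cytoplasm, next to the site of peptide bond formation. RPL10 had 1114, 1039.7 and 1160.0 FPKM in oeALKBH5, against 872, 886 and 883 FPKM in NC. Every oeALKBH5 library was above every NC library, and the NC libraries were almost equal. The means were 1104 ± 60.7 and 881 ± 7.33 FPKM (SD, n = 3 each), a 1.25-fold difference (log2 fold change 0.33 with an SE of 0.05, limma adjusted p = 0.0114). The call was lost without NC replicate 3 (limma adjusted p = 0.0577) and also without oeALKBH5 replicate 3.

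RPL7A (ENSG00000148303), an RNA-binding protein of the 60S subunit, had the smallest p among the higher genes. It had 3101, 3084 and 3147 FPKM in oeALKBH5, against 2589, 2591 and 2572 FPKM in NC. The gap between the groups was several times the spread within either. The means were 3111 ± 32.4 and 2584 ± 10.4 FPKM (SD, n = 3 each), or 1.2-fold (log2 fold change 0.27, SE 0.03, limma adjusted p = 0.00426). It was the only higher member called whichever library was left out (limma adjusted p up to 0.0352), although not with quantile normalization (log2 fold change 0.14, limma adjusted p = 0.216).

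RPL26 (ENSG00000161970) and RPL39 (ENSG00000198918) both lie where the nascent peptide leaves the ribosome, RPL39 inside the tunnel and RPL26 at its mouth. RPL26 had 2879, 2909.5 and 2956 FPKM in oeALKBH5, against 2571, 2432 and 2401 FPKM in NC (log2 fold change 0.24, SE 0.04, limma adjusted p = 0.0133). RPL39 had 3008, 3284 and 2862 FPKM in oeALKBH5, against 2589, 2572 and 2574 FPKM in NC (log2 fold change 0.24, SE 0.05, limma adjusted p = 0.0341). Neither overlapped between groups, and both were 1.18-fold higher. RPL39 stayed called in only 1 of the 6 fits that left out a library, with a limma adjusted p of 0.125 without NC replicate 3. With quantile normalization its log2 fold change was 0.09 (limma adjusted p = 0.4). RPL26 was lost without oeALKBH5 replicate 3 and without NC replicate 3 (limma adjusted p = 0.0744).

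RPL7 (ENSG00000147604), an rRNA-binding protein of the large subunit, had 1881, 1871 and 1953 FPKM in oeALKBH5, against 1557, 1718 and 1573 FPKM in NC. It was also 1.18-fold higher (log2 fold change 0.24, SE 0.05, limma adjusted p = 0.0323), with NC replicate 2 nearest to the oeALKBH5 libraries. It stayed called in 1 of the 6 fits that left out a library (limma adjusted p = 0.133 without NC replicate 3). RPL7, RPL7A, RPL26 and RPL39 have 61, 80, 36 and 40 RefSeq pseudogenes by name and RPL10 has 19. Reads could be divided among such copies in ways the deposited values do not show, so the levels of these genes are uncertain to that extent.

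Other 60S genes did not overlap between groups and did not pass the test. RPL28, a 60S protein, had 373, 317 and 347 FPKM in oeALKBH5 and 307, 261 and 287 FPKM in NC (log2 fold change 0.28, SE 0.09, limma adjusted p = 0.103). RPL8, a core protein beside the peptidyl transferase centre, had 1407, 1299 and 1475 FPKM in oeALKBH5 and 1225, 1216 and 1206 FPKM in NC (0.20, SE 0.05, limma adjusted p = 0.0759). The difference of RPL28 was larger than that of some called genes, and the difference of RPL8 was smaller than that of every called 60S gene. RPL15, another 60S protein, was the only 60S gene with all oeALKBH5 libraries below all NC libraries, at 1198, 1215 and 1222 FPKM against 1300.2, 1299 and 1353 FPKM (-0.12, SE 0.04, limma adjusted p = 0.143).

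Among 40S genes, RPS28 (ENSG00000233927) fell the most of those that passed. RPS28 is a small protein at the mRNA exit of the 40S subunit. It had 320.1, 356 and 339 FPKM in oeALKBH5, against 454, 508 and 459 FPKM in NC. All oeALKBH5 libraries were below all NC libraries, with means of 338 ± 17.8 and 474 ± 29.9 FPKM (SD, n = 3 each). The oeALKBH5 level was 0.714 of the NC level (log2 fold change -0.48 with an SE of 0.07, limma adjusted p = 0.00709). The call held whichever library was left out (limma adjusted p up to 0.0352) and was lost only without the intensity trend (0.1).

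RPS7 (ENSG00000171863), a 40S protein that can also bind the p53 ubiquitin ligase MDM2, had 744, 719.7 and 721 FPKM in oeALKBH5, against 844, 846 and 859 FPKM in NC. The groups did not overlap (728 ± 13.7 against 849.9 ± 8.03 FPKM, SD, n = 3 each), but the change was small (log2 fold change -0.22, SE 0.05, limma adjusted p = 0.0307). RPS7 was called in 3 of 14 other settings and in none of the 6 that left out a library (limma adjusted p up to 0.126). With quantile normalization its log2 fold change was -0.10 (limma adjusted p = 0.316). Among the called members with a RefSeq start, RPS7 and RPS28, shown above, are those without a tract. In RPS28 the first base is an A, directly followed by a run of pyrimidines. No RefSeq start was available for the called members RPL7 and RPS19BP1, so their tracts are unknown.

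RPS26, which contacts mRNA upstream of the start codon in the 40S exit channel, had 466, 409.6 and 386 FPKM in oeALKBH5, against 519.9, 482 and 505 FPKM in NC. The groups did not overlap, and the difference did not pass (log2 fold change -0.26, SE 0.08, limma adjusted p = 0.0942). RPS3, a 40S protein at the mRNA entry channel, lay in the other direction without overlap, at 1845, 1792 and 1939 FPKM in oeALKBH5 and 1677, 1673 and 1660.4 FPKM in NC (0.15, SE 0.04, limma adjusted p = 0.0827).

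**Figure D3:**
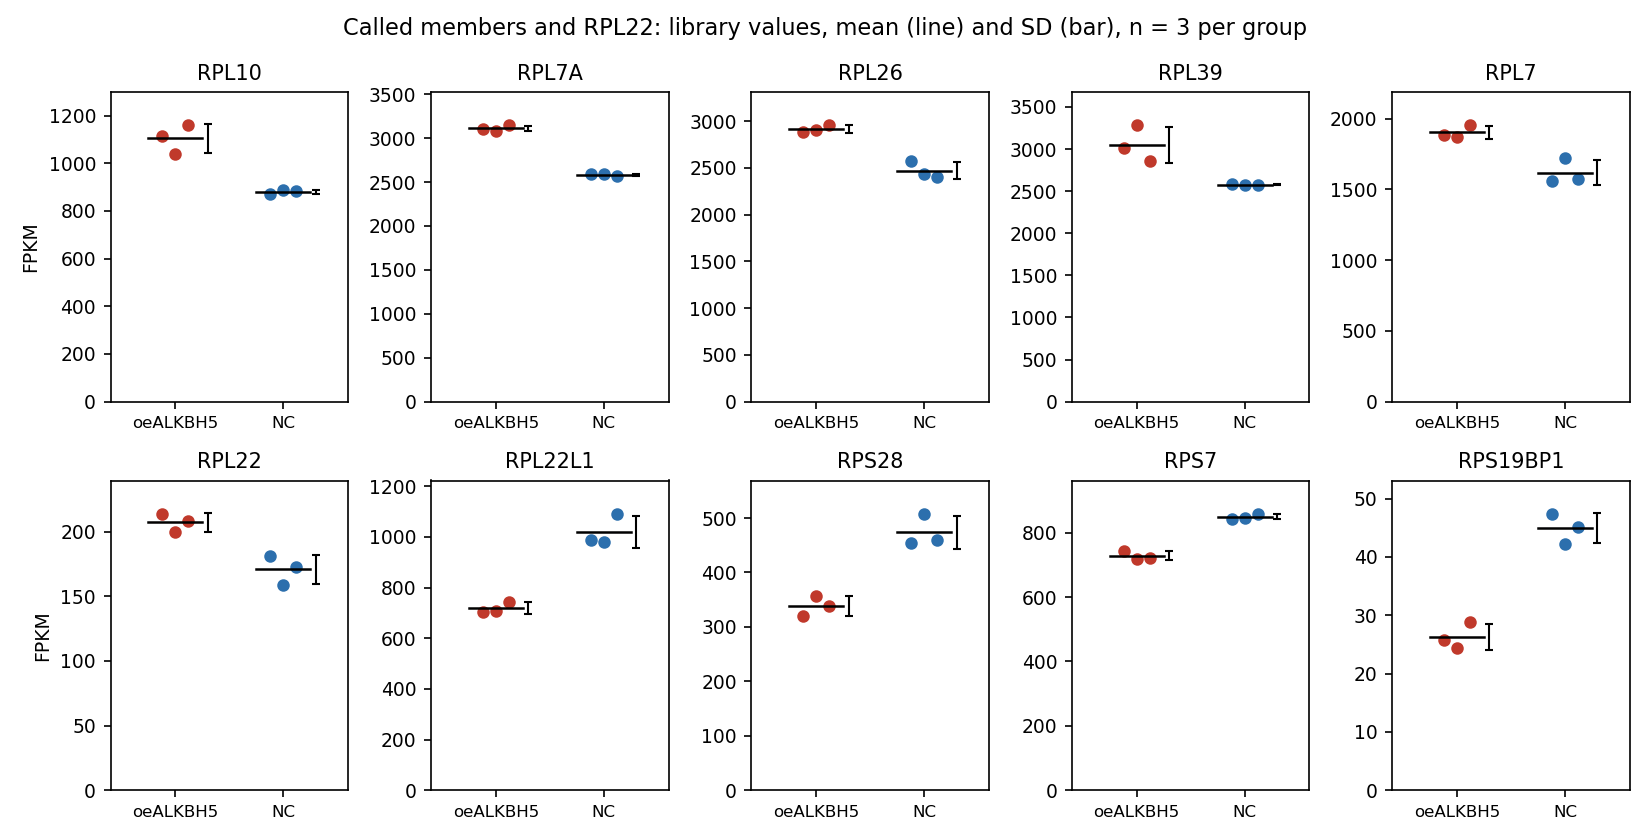
FPKM of the 9 called members and RPL22 in each library (points), with the group mean (line) and SD (bar), n = 3 per group; each axis starts at 0. The groups do not overlap in any panel; RPL10, the largest rise, averaged 1104 against 881 FPKM, and RPS19BP1, the largest fall, averaged 26.3 against 44.9 FPKM.

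Several ribosomal proteins have a second gene, and in the pair RPL22 and RPL22L1 the second gene fell while RPL22 did not pass the test. RPL22 is an RNA-binding 60S protein, and RPL22L1 encodes a close copy that can take its place in the ribosome; in mouse, Rpl22 protein represses Rpl22l1. RPL22L1 (ENSG00000163584) had 704, 707 and 745 FPKM in oeALKBH5, against 988, 979.7 and 1092 FPKM in NC. Its means were 719 ± 23.1 and 1019.8 ± 62.4 FPKM (SD, n = 3 each), so the oeALKBH5 level was 0.705 of the NC level (log2 fold change -0.50, SE 0.06, limma adjusted p = 0.00244). This was the smallest p among all members, it held whichever library was left out (limma adjusted p up to 0.0157), and RefSeq lists no pseudogene named for RPL22L1. RPL22 lay in the opposite direction, at 214, 199.8 and 208 FPKM in oeALKBH5 and 181, 159 and 173 FPKM in NC. Its groups did not overlap, but it did not pass the test (log2 fold change 0.28 with an SE of 0.08, limma adjusted p = 0.075). The ratio of the RPL22L1 level to the RPL22 level was 3.29, 3.54 and 3.58 in oeALKBH5, against 5.45, 6.17 and 6.32 in NC. The paralog was thus the more abundant mRNA of the pair per length in every library, by a smaller factor in oeALKBH5. RefSeq lists 22 pseudogenes named for RPL22, and reads could be divided among those copies too. The RPL22 level and this ratio are uncertain to that extent. Both genes have a short tract at their start, of 7 bases in RPL22 and 6 in RPL22L1.

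No other pair had a paralog that passed the test. RPL7L1, which acts in 60S assembly and not as the usual subunit protein, had 106, 121 and 123 FPKM in oeALKBH5 and 106, 100 and 109.9 FPKM in NC (log2 fold change 0.15, SE 0.09, limma adjusted p = 0.387). RPL10L, an autosomal copy of RPL10 known from male germ cells, had 3.75, 8.81 and 9.67 FPKM in oeALKBH5 and 7.44, 6.1 and 4.61 FPKM in NC (0.19, SE 0.33, limma adjusted p = 0.789). RPL26L1, a near copy of RPL26, had 36.4, 54.2 and 50.7 FPKM in oeALKBH5 and 41.2, 59.6 and 49.1 FPKM in NC (-0.09, SE 0.18, limma adjusted p = 0.826). These paralogs overlapped between groups, and RPL10 and RPL26, the main genes of those pairs, stood more than an order of magnitude above them.

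For RPL36A and RPL36AL, which encode nearly the same 60S protein, RPL36A had 591, 712 and 658 FPKM in oeALKBH5 and 600.1, 608 and 574 FPKM in NC (log2 fold change 0.13, SE 0.07, limma adjusted p = 0.32). RPL36AL had 83.8, 72.2 and 85.7 FPKM in oeALKBH5 and 74.8, 81.8 and 79.9 FPKM in NC (0.03, SE 0.10, limma adjusted p = 0.906). RPS27 and RPS27L encode alternative forms of 1 zinc-finger protein of the 40S subunit, and RPS27L is known as a p53 target. RPS27 had 501, 472 and 538 FPKM in oeALKBH5 and 559, 614 and 503 FPKM in NC (-0.15, SE 0.08, limma adjusted p = 0.337). RPS27L had 197, 167 and 138 FPKM in oeALKBH5 and 232, 172 and 184 FPKM in NC (-0.23, SE 0.15, limma adjusted p = 0.405). All 4 genes overlapped between groups. At their starts, RPS27 has a tract and RPS27L has none.

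RPL3, a 60S protein that reaches close to the site of peptide bond formation, had 1224, 1358 and 1349 FPKM in oeALKBH5 and 1262, 1231 and 1185 FPKM in NC (log2 fold change 0.09, SE 0.05, limma adjusted p = 0.351), beside RPL3L at 0. RPS4X, the X-linked gene of a 40S protein with a Y-linked copy, had 538, 553 and 551 FPKM in oeALKBH5 and 501, 489 and 475 FPKM in NC. Its groups did not overlap, and it did not pass the test (0.16, SE 0.05, limma adjusted p = 0.112).

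RPS19BP1 (ENSG00000187051), whose product binds RPS19 and the deacetylase SIRT1, had the largest difference among the members and the lowest level among the called ones. It had 25.7, 24.4 and 28.8 FPKM in oeALKBH5, against 47.4, 42.2 and 45.1 FPKM in NC. The highest oeALKBH5 library was far below the lowest NC library. The means were 26.3 ± 2.25 and 44.9 ± 2.59 FPKM (SD, n = 3 each), a ratio of 0.585 (log2 fold change -0.75 with an SE of 0.12, limma adjusted p = 0.0106). The call was lost only without NC replicate 3 (limma adjusted p = 0.0553). RPS19, the protein it binds, is a 40S gene that did not pass the test.

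Summed over genes, the balance of the subunits differed slightly between groups. The 60S genes summed to 53763, 55386 and 55743 FPKM in oeALKBH5, against 52452, 52272 and 51047 FPKM in NC, without overlap. The 40S genes summed to 32295, 32890 and 33096 FPKM in oeALKBH5 and 33476, 32390 and 32473 FPKM in NC, with overlap. The ratio of the 60S sum to the 40S sum was 1.665, 1.684 and 1.684 in oeALKBH5, against 1.567, 1.614 and 1.572 in NC. This ratio was higher in every oeALKBH5 library. Without the 5 called 60S genes, the 60S sums overlapped, at 41781, 43198 and 43665 FPKM in oeALKBH5 and 42273, 42073 and 41043 FPKM in NC. The ratio then overlapped as well, at 1.294, 1.313 and 1.319 in oeALKBH5 and 1.263, 1.299 and 1.264 in NC. The 5 genes were called because they were higher in these same libraries, so leaving them out had to narrow the gap. The smaller sums therefore cannot show which genes the lack of overlap came from. The ratio of the median 60S gene to the median 40S gene, which the most abundant genes weigh on less, overlapped between groups, at 1.179, 1.174 and 1.223 in oeALKBH5 and 1.036, 1.217 and 1.138 in NC.

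**Figure D4:**
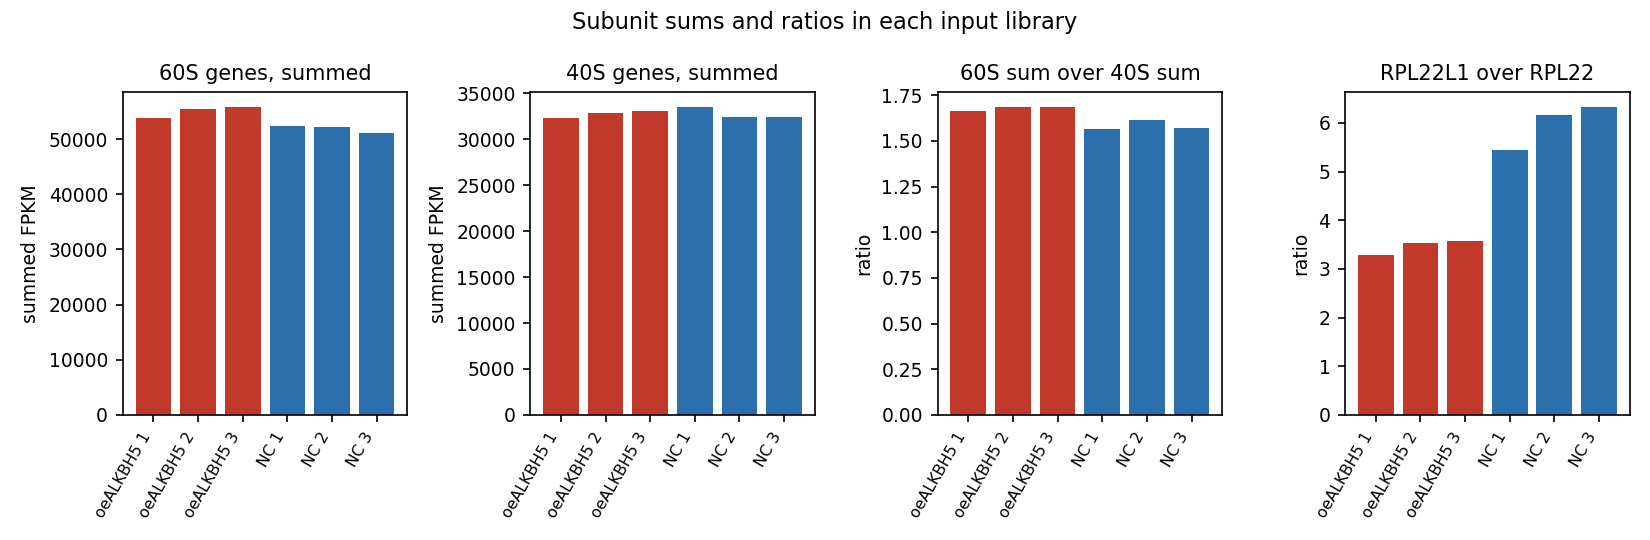
Summed FPKM of the 46 genes of the 60S subunit and the 31 genes of the 40S subunit, the ratio of these sums, and the ratio of RPL22L1 to RPL22, in each input library; bars start at 0, oeALKBH5 red and NC blue. The 60S sum is at least 53763 in oeALKBH5 and at most 52452 in NC, and the RPL22L1 to RPL22 ratio is at most 3.58 in oeALKBH5 and at least 5.45 in NC.

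The members were also described by role. Of 10 genes listed for the peptide exit site, where chaperones and targeting factors dock, 2 were higher (RPL26 and RPL39), none was lower and 8 did not pass. In this list 9 of 10 values were positive, with a median log2 fold change of 0.13, and 6 of 10 were higher without overlap. The list includes RPL24, whose place at this site is uncertain. RPL24 is among the positive values (0.14), but its groups overlapped and it did not pass. Over all tested genes 5.45% were called and 15.1% were higher without overlap, against 21.9% and 20.2% of those that averaged 100 FPKM or more, so the called share of 20% lay near the second background. RPL23A, the docking protein for the signal recognition particle, had 1106, 1042 and 1145 FPKM in oeALKBH5 and 985, 947 and 964 FPKM in NC, without overlap (log2 fold change 0.18, SE 0.05, limma adjusted p = 0.077). RPL4, which lines the tunnel, did not overlap either, with 1480.4, 1495 and 1527 FPKM in oeALKBH5 and 1434, 1364 and 1354 FPKM in NC (0.12, SE 0.04, limma adjusted p = 0.161).

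None of the 4 P stalk genes passed the test, and their median log2 fold change was 0.05. The called share was 5.45% of all tested genes and 21.9% of those that averaged 100 FPKM or more. No call among 4 genes does not set the stalk apart from either. The stalk recruits elongation factors to the ribosome. RPLP2 was the one without overlap, at 487, 503 and 538 FPKM in oeALKBH5 and 426, 468 and 440.3 FPKM in NC (0.20, SE 0.06, limma adjusted p = 0.117). RPL5 and RPL11, which with 5S rRNA bind MDM2 when ribosome assembly is disturbed, did not pass and differed in sign. RPL5 had 622, 609.5 and 625 FPKM in oeALKBH5 and 592, 536 and 591 FPKM in NC (0.11, SE 0.06, limma adjusted p = 0.298). RPL11 had 491, 442 and 489 FPKM in oeALKBH5 and 487, 492 and 529 FPKM in NC (-0.09, SE 0.07, limma adjusted p = 0.481), and its groups overlapped.

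Of 18 genes mutated in Diamond-Blackfan anaemia, an inherited failure of red cell production, 1 was higher (RPL26), 2 were lower (RPS28 and RPS7) and 15 did not pass. The called share of 16.7% lay between the 5.45% of all genes and the 21.9% of those that averaged 100 FPKM or more. Their median log2 fold change was -0.07, with 5 values positive and 13 negative. FAU and RACK1 did not pass. FAU, which encodes a 40S protein fused to a ubiquitin-like one, had 401, 375 and 405 FPKM in oeALKBH5 and 424, 463 and 427 FPKM in NC, without overlap (log2 fold change -0.15, SE 0.06, limma adjusted p = 0.201). RACK1, a scaffold on the 40S head, had 847, 867 and 793 FPKM in oeALKBH5 and 838, 825 and 788 FPKM in NC, with overlap (0.03, limma adjusted p = 0.777).

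Other mRNAs known to carry a TOP tract gave a mixed picture as well. The list holds 15 genes outside the ribosome that are known as TOP mRNAs; 9 of them had a RefSeq start in the table, and 8 of these had a tract by the definition above. Of the 15, 4 were higher, 1 was lower and 10 did not pass. The called share was 33.3%, beside 5.45% of all genes and 21.9% of those that averaged 100 FPKM or more, and the median log2 fold change was 0.11. EEF2, the translocation factor of elongation, had 3765, 4313 and 4445 FPKM in oeALKBH5, against 3263, 3227 and 3262 FPKM in NC (0.36, SE 0.06, limma adjusted p = 0.0121, and 0.0604 without NC replicate 3). EIF4B, which assists the helicase of initiation, had 483, 544 and 572 FPKM in oeALKBH5, against 413, 429.5 and 409.6 FPKM in NC (0.35, SE 0.07, limma adjusted p = 0.0297). The groups did not overlap for either gene. EIF3H (0.44, limma adjusted p = 0.0484) and PABPC1 (0.21, limma adjusted p = 0.0452) were also higher, and the splicing factor gene HNRNPA1 was lower, with 736, 769 and 745 FPKM in oeALKBH5 and 852, 985 and 886 FPKM in NC (-0.27, limma adjusted p = 0.0417). EIF4B, EIF3H and HNRNPA1 each stayed called in 1 of the 6 fits that left out a library, and PABPC1 in none (limma adjusted p up to 0.12, 0.166, 0.122 and 0.164 for EIF4B, EIF3H, HNRNPA1 and PABPC1). EEF1A1, the most used elongation factor, had 2941, 3307 and 2801 FPKM in oeALKBH5 and 3392, 3102 and 3280.1 FPKM in NC, with overlap.

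None of the 11 genes of the mTORC1 and LARP1 pathway that controls these mRNAs passed the test, and their median log2 fold change was 0.08. Over all tested genes 5.45% were called, so no call among 11 genes does not set this list apart. The median level of the list was 27.7 FPKM. The kinase gene MTOR had 23.1, 25 and 24.2 FPKM in oeALKBH5, against 27.7, 34.3 and 31.8 FPKM in NC, without overlap (-0.36, SE 0.13, limma adjusted p = 0.154). LARP1 overlapped between groups, at 121, 151 and 134 FPKM in oeALKBH5 and 113, 149 and 138 FPKM in NC. Of the 8 chaperones and carriers that escort new ribosomal proteins, none passed, beside 5.45% of all tested genes, and the median was -0.12. This list too is short for that share. BCCIP, a carrier of RPL23, was lower without overlap (-0.22, limma adjusted p = 0.21). It had 81.5, 70.3 and 78.4 FPKM in oeALKBH5 and 88.6, 87.1 and 92.7 FPKM in NC.

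The mitochondrial ribosomal proteins are the closest group by function, and their values lay lower. Of 77 tested, none was called higher, 4 were called lower and 73 did not pass (5.19% called, beside 5.45% of all genes). Their median log2 fold change was -0.17, with 64 of 77 values negative, and 28.6% were lower without overlap, beside 13% of all tested genes and 30.4% of those that averaged 100 FPKM or more; the median level of these genes was 42.1 FPKM. For the cytosolic members the median was 0.02, with 38 of 84 values negative, and 8.33% lower without overlap (23.8% higher). The difference between these lists has no test of its own.

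**Figure D5:**
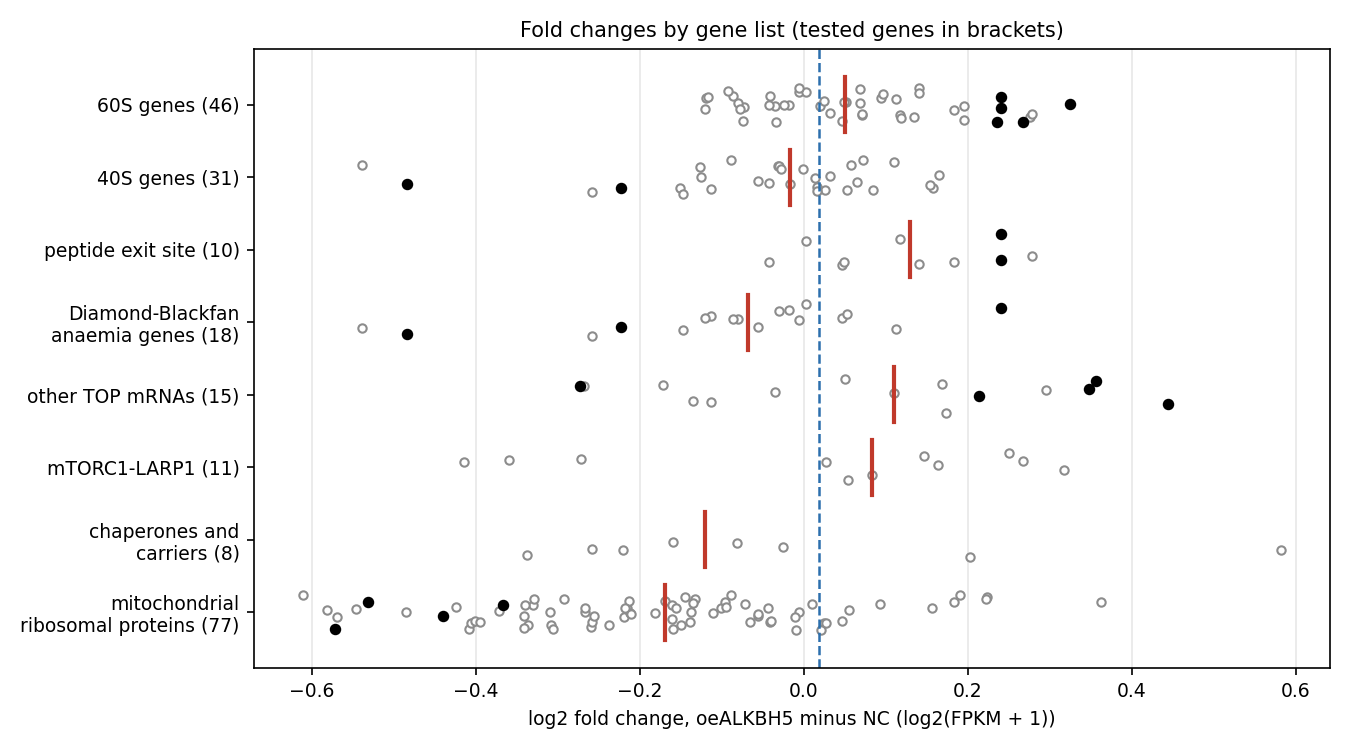
Log2 fold change, oeALKBH5 minus NC, on the log2(FPKM + 1) scale, of each tested gene by list (points; filled where the limma test was passed), with the list median (red line) and the median of all tested genes, 0.02 (dashed line). The 60S and exit site lists have medians of 0.05 and 0.13, and the mitochondrial list has a median of -0.17.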

How the data were processed

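Expression was measured in 6 input libraries (3 oeALKBH5, 3 NC) of 12 libraries in all, grouped by the genotype in the labels. Per the labels' protocols, rRNA was removed from total RNA, and strand-marked libraries were read from both ends at 150 bases. Cufflinks, Cuffdiff, HISAT2 2.0.4, cutadapt 1.9.3 and hg19 are given, with no role, in the submitters' processing notes. The authors' deposited gene values are taken as FPKM, which follows from those tools and from the values, since the table names no unit. It gives no read counts, so depth is unknown and no counting interval was computed; summed FPKM ran between 511333 and 524905 per library. The 6 deposited peak lists were not used, since they need an hg19 annotation.

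Values were transformed to log2(FPKM + 1), which understates changes of low genes, and fitted with limma 3.58.1 (intensity trend) in R 4.3.3 for all 12757 genes that averaged 0.5 FPKM or more; p-values were adjusted by Benjamini-Hochberg, with a threshold of 0.05. The step was tested on simulated data in which every planted change was larger than that of any called member. That test does not bear on changes as small as those reported here. Python 3.11.15, pandas 2.3.3, numpy 2.4.6 and matplotlib 3.10.9 were used for the rest. Symbols were found for 19434 of 20308 gene IDs. Starts came from a RefSeq promoter table (GRCh38.p14), matched by symbol. Alternatives changed the pseudocount (0.1), the filter (none, or a mean of at least 1 FPKM), the scaling, the variance trend and the replicate block, or left out each library in turn. The background of genes with at least 100 FPKM was added after seeing the data.

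The members and gene lists were chosen with earlier results of these data known. Genes given in full were the called members, the 5 highest and lowest by level, the 5 largest and smallest fold changes and the paralog pairs; from other lists, called genes and up to 4 with the smallest p. Some genes that this rule takes are not reported here. RPL8, RPL15, RPS3, RPS19, RPS21, RPS24, EEF1A1 and LARP1 were chosen after their values were seen.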

Additional observations from a re-analysis of the deposited data

How the results depend on the processing

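Of the ribosomal protein genes, 9 were called, 5 higher and 4 lower, of 695 called genes in all. Without a filter on low values there were 5 called members, 2 of them higher, of 421 called genes. Without the intensity trend there were 1, 0 higher and 1 lower, of 270. The replicate numbers did not pair the libraries (correlations of deviations -0.02, -0.02 and 0.03, with replicate 3 alone closest to its own number); a fit with the replicate block called 5 members, 2 higher, of 344 genes. Leaving out each library in turn gave 3 to 7 called members, 1 to 4 higher and 2 to 4 lower, of 232 to 436 called genes. The fewest came without NC replicate 3, and each such fit has fewer samples; the cause of the other losses was not tested. The pseudocount of 0.1, the filter at a mean of 1 FPKM and the scaling by medians left 5 higher and 4 lower.

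The median log2 fold change of the members, 0.018, was -0.009 with median scaling and 0.044 with scaling to nuclear genes outside the list. The median over all tested genes, also 0.018, moved alike, to -0.006 and 0.042. With quantile normalization the members had 0.039 and all tested genes -0.011. Without each library the median was 0.008 to 0.039 for the members and 0.014 to 0.025 for all tested genes. Genes near 0 changed sign: RPL21 (-0.01 with median scaling, -0.03 with quantile normalization, -0.0013 without NC replicate 3), RPS18 (-0.05 with quantile normalization), RPL10L (-0.03 to 0.56 over the fits that left out a library, lowest without oeALKBH5 replicate 3), RPL26L1 (-0.22 to 0.08 over those fits, with 0.08 without oeALKBH5 replicate 1 and 0.05 without NC replicate 2) and RPL36AL (-0.0023 and -0.02 without oeALKBH5 replicates 1 and 3, -0.01 without NC replicate 1). No called member reversed under these alternatives. FPKM without counts limit low members such as RPL10L.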
